A study of Mus musculus with 4 samples.

Results

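Circular RNAs (circRNAs) form when a downstream splice donor is joined back to an upstream acceptor, and 1 gene can give several circles that keep the same acceptor or the same donor and differ in the other end. These alternative circles with 1 shared end were described here in the developing mouse lung. They were chosen as the circRNAs that had 10 or more junction reads over all 4 libraries and shared their chromosome and start, or their chromosome and end, with another circRNA of the same minimum. By this rule 829 circRNAs were members, which is 41.9% of the 1977 circRNAs with 10 or more reads and 6.14% of all 13499 distinct circRNAs listed. They came from 297 host genes, and 4 of them had no host gene. Members were thus chosen by their summed junction reads, so their abundance and the number of libraries that list them are descriptions. The members lay in 414 sets, a set being all members that share the same end.

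The libraries were made from total RNA of whole lung of C57BL/6 mice, with 1 library for each stage. The stages were pseudoglandular at embryonic day 14.5, canalicular at embryonic day 16.5, terminal sac at embryonic day 18.5 and alveolar at newborn day 7.5. No treatment or mutation is named in the labels, and the number of animals behind each library is not stated there. There was therefore no replicate of any stage, no p-value can be given, and every interval below covers counting error only. In whole lung, fewer cells of a type and less RNA per cell cannot be told apart.

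In back-splicing the branch between circle and messenger is decided at splice sites that the linear transcript also uses. The intron before the first circularised exon and the intron after the last are often long, and paired repeats or RNA-binding proteins within them are known to bring the ends together. The second exon of a gene is a common first exon of circles, because the first exon has no acceptor site. Most circRNAs are stable against exonucleases, and their levels differ between tissues and developmental stages.

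The sequences across the back-splice junctions show what a shared end is. In each line below the 15 bases of the donor side are joined to the 15 bases of the acceptor side as in the circle, read 5′ to 3′ on the strand of the host gene from GENCODE M21 transcripts on mm10. Capitals mark the side of the alternative end, and lower case marks the shared end. The first set belongs to Strn3 on the minus strand of chromosome 12, and its circles share the acceptor of exon 2 at position 51661713. It is shown because its change rests on 315 or more set reads in every library.
Strn3 exons 2 to 4: ACAGCTATTAAGACAgcacggattgcattt
Strn3 chr12:51648006-51661713: GGAGTTCAGGGGATGgcacggattgcattt
Strn3 exons 2 to 7: ATGGTACAGAATGGGgcacggattgcattt
Strn3 exons 2 to 15: CACAGGTAGATTCTGgcacggattgcattt
Strn3 exons 2 to 16: TTGACAATAAAACGGgcacggattgcattt

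Taf4 on chromosome 2 shares the acceptor of exon 2 among 3 circles, and Chd2 on chromosome 7 shares that of exon 3 between 2. Srbd1 on chromosome 17 is the opposite arrangement, in which the donor of exon 14 is kept and the acceptor varies, shown for 2 of its 3 circles. These sets are shown because the usage of their circles differed between libraries.
Taf4 exons 2 to 5: GTACAAAACTTACTGgaatggtcctcgtgc
Taf4 exons 2 to 7: ACGCAGCCCACACAGgaatggtcctcgtgc
Taf4 exons 2 to 14: GGATCAGGAGCAGAGgaatggtcctcgtgc
Chd2 exons 3 to 5: GCAGCTGAAAAAACAtcgttcagcttctga
Chd2 exons 3 to 6: ACCGGTCCCTAGAAGtcgttcagcttctga
Srbd1 exons 12 to 14: ggatgtcgtttactgAGCCAAACTGACATC
Srbd1 exons 11 to 14: ggatgtcgtttactgGTGGAGGCCACGTGG

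Of the 414 sets, 255 kept the acceptor of their first exon and varied in the last exon, 158 kept the donor of their last exon, and 1 had no host. Pairs made up 320 sets, 73 sets held 3 circles and 16 held 4, and the fullest, in Strn3 and Rere, held 8 each. A member could belong to a start set and an end set at once, as 126 did, and chains of such members gave 304 linked groups. The largest linked group was that of Rere, an atrophin-family transcriptional corepressor, with 12 circles and 599 reads. Strn3, a regulatory subunit of protein phosphatase 2A in the STRIPAK complex, had a group of 9 circles with 1805 reads. Senp6, a SUMO protease, had 8 circles with 362 reads, and Ash1l, a histone methyltransferase, and Zfp644, a zinc-finger protein, had 7 each.

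Members were set beside the other 1148 circRNAs with 10 or more reads, which shared no end. Members were of exon type in 96.7%, against 94.6% of the others, and had both ends at exon boundaries of an annotated transcript in 93.0%, against 91.2%. Their median span along the genome was 14736 bases, against 6525, while the median number of exons was 4 in both. Of the 745 members with exon numbers 328 (44.0%) began at exon 2, against 345 of 1007 others (34.3%). Sets with a shared first exon began at exon 2 in 121 of 243 cases (49.8%). Members were listed in all 4 libraries in 436 cases (52.6%), against 459 of the others (40.0%), and in only 1 library in 16 against 83. Their median total was 23 reads, against 18 in the others, and the shares in this paragraph were not adjusted for it. The median junction ratio, the deposited share of circular among all reads at the ends, was 4.44% in members and 3.66% in the others when pooled over the libraries. The members close to the minimum were many, since 105 had 10 or 11 reads, and of the 494 circRNAs with 8 or 9 reads just below it, 134 shared an end with a circRNA above it. Without its best library, 331 members (39.9%) would have fallen under 10 reads, against 635 of the others (55.3%).

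From the pseudoglandular to the alveolar library the lists held 25983, 31218, 36156 and 28332 junction reads. Members took between 37.5% and 39.9% of them in each library, and 46633 of 121689 reads (38.3%) in all. A circle enters a list only with 2 or more reads, so an unlisted circle, written as 0 below, can have had 1 read or have been filtered. Direct repeats of 6 or more bases at both ends, or very few distinct alignment patterns among the reads, marked 23 members (2.77%) and 65 of the others (5.66%), and these are named where they enter a result.

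Within a set, usage is the share of the set's junction reads that belongs to 1 circle. Over all libraries the leading circle of a set had a median usage of 64.4%, and in 41 of 404 sets it had 90% or more, the 10 sets whose alternative ends lie within 10 bases being left aside. The shortest circle led in 200 of these sets (49.5%) and the longest in 164, although the longest spanned 2.73 times as much genome as the shortest at the median (26842 against 8122 bases). In the 315 such sets of 2, the shorter circle led in 171, which is 54.3% with an exact binomial interval of 48.6 to 59.9%. The leading circle was the same in every library in 143 of the 194 sets with 10 or more reads in each (73.7%).

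The set with most reads shows such a fixed leader. In Tulp4, a tubby-like protein gene, the circle chr17:6137211-6139156 had 450, 488, 409 and 489 reads from the pseudoglandular to the alveolar library, and 3 longer circles from the same acceptor shared between 8 and 35 reads in any library. Its usage stayed between 93.3% and 98.1%. In Zfp827, a zinc-finger gene, the circle of exons 6 to 8 had 186, 223, 266 and 188 reads and a usage of 95.4 to 98.4% beside the circle of exons 6 to 7. Usp3, a histone deubiquitinase, gave exons 2 to 8 with 112, 129, 130 and 82 reads, which was 93.2 to 95.7% of the set that shares the donor of exon 8. These leading circles had 93.2% or more of their set in every library, while the other ends had few reads.

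To compare stages, a set was used where it had 10 or more reads in each library of the pair. A circle was called when its usage differed by 20 percentage points or more with a Newcombe 95% interval that excluded 0, and a set was called when any of its circles was. In the alveolar against the pseudoglandular library 46 of 206 sets were called (22.3%), in 42 host genes. The usage of the shortest circle was higher in the alveolar library in 23 of them and lower in 23. The median difference of the shortest circle over all 206 sets was 0 points, the median absolute difference was 11 points, and the median width of its interval was 41.6 points. Small differences were therefore not detectable in a typical set. In 24 of the 46 called sets the called circle was unlisted in 1 of the libraries. Of the 829 members 331 met the minimum of 10 summed reads only through 1 library, several circles named below among them. A call of such a circle can in part follow from this selection. How many called circles this concerns, here and in the steps below, was not counted.

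The steps between neighbouring stages gave like shares at these minimums. In the canalicular against the pseudoglandular library 57 of 257 sets were called (22.2%), the shortest circle being higher in 27 and lower in 30. The terminal sac library set against the canalicular gave 55 of 277 (19.9%), with 31 higher and 24 lower, and in the alveolar against the terminal sac library 46 of 237 (19.4%), with 23 and 23. These comparisons share libraries. A called circle was unlisted in 1 library in 35, 30 and 21 of the called sets of these steps, in that order. In all, 144 of the 324 sets compared at least once were called at least once, and 107 of the 194 compared in every pair were called in none. Over the 188 sets with 10 or more reads in every library and no ends within 10 bases, the shortest circles had 48.9, 47.5, 47.2 and 51.2% of the summed reads from the pseudoglandular to the alveolar library. No common direction towards shorter or longer circles appeared in these values.

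**Figure D1:**
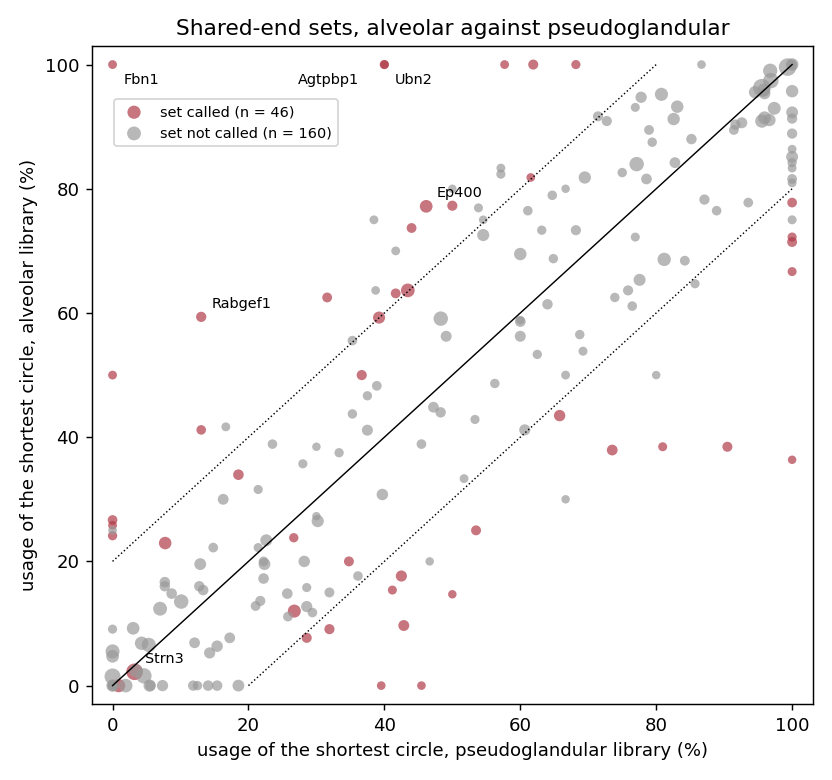
Usage (%) of the shortest circle of each set in the alveolar library (y axis) against the pseudoglandular library (x axis) for the 206 sets with 10 or more reads in both; larger points have more reads in the shallower library, the solid line marks equal usage and the dotted lines a difference of 20 points. The 46 called sets lie on both sides of the line, and Strn3 sits near the origin because the circle that changed there is not the shortest of its set.

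Sets that shared the first exon were called in 37 of 131 cases (28.2%) in the alveolar against the pseudoglandular library, and sets that shared the last exon in 9 of 75 (12%). The order was not the same in every step. The shares were 38 of 158 (24.1%) and 18 of 98 (18.4%) in the canalicular against the pseudoglandular library, 31 of 174 (17.8%) and 24 of 102 (23.5%) in the terminal sac against the canalicular library, and 29 of 151 (19.2%) and 17 of 86 (19.8%) in the alveolar against the terminal sac library, first-exon sets named before last-exon sets each time.

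Pairs of circles that share 1 end were also set beside pairs from 1 host that share none, each circle with 10 or more reads in all and each pair with 10 or more in each library. In the alveolar against the pseudoglandular library 60 of 350 pairs with a shared end were called (17.1%), against 62 of 257 pairs without (24.1%). The shares were 14.8% against 24% in the canalicular against the pseudoglandular library, 14% against 17.6% in the terminal sac against the canalicular library, and 18.1% against 23.4% in the alveolar against the terminal sac library. The share was lower among pairs with a common end in each of these 4 comparisons. A circle enters several pairs, so the pairs are not independent, and the difference between the kinds of pair was not tested.

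Strn3 gave the narrowest interval among the 12 sets named for the alveolar against the pseudoglandular library. Its circle of exons 2 to 7 (chr12:51647994-51661713) had 247 of 401 set reads in the pseudoglandular library, 349 of 540 in the canalicular, 389 of 529 in the terminal sac and 268 of 315 in the alveolar library. Its usage was therefore 61.6, 64.6, 73.5 and 85.1% in order of stage, highest in the alveolar library and with no reversal between neighbours. The alveolar usage of 85.1% was 23.5 points above the pseudoglandular 61.6% (95% interval 17.1 to 29.5). The 5 circles that begin at the same acceptor and end beyond exon 7 together had 127, 172, 115 and 30 reads, which is 31.7, 31.9, 21.7 and 9.52% of the set. The longest, Strn3 exons 2 to 16, whose junction reads TTGACAATAAAACGGgcacggattgcattt, had 41, 64, 46 and 4 reads, and Strn3 exons 2 to 15 had 50, 70, 38 and 23. As a share of all listed junction reads the alveolar to pseudoglandular ratio was 0.995 for Strn3 exons 2 to 7 (exact interval 0.834 to 1.19), 0.422 for Strn3 exons 2 to 15 (0.246 to 0.704) and 0.0895 for Strn3 exons 2 to 16 (0.0233 to 0.247). The leading circle thus held its share of the libraries while the long circles of the set had less. Strn3 exons 4 to 7, which shares the donor of exon 7, had 0, 10, 6 and 4 reads beside it and at most 2.79% of that set.

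**Figure D2:**
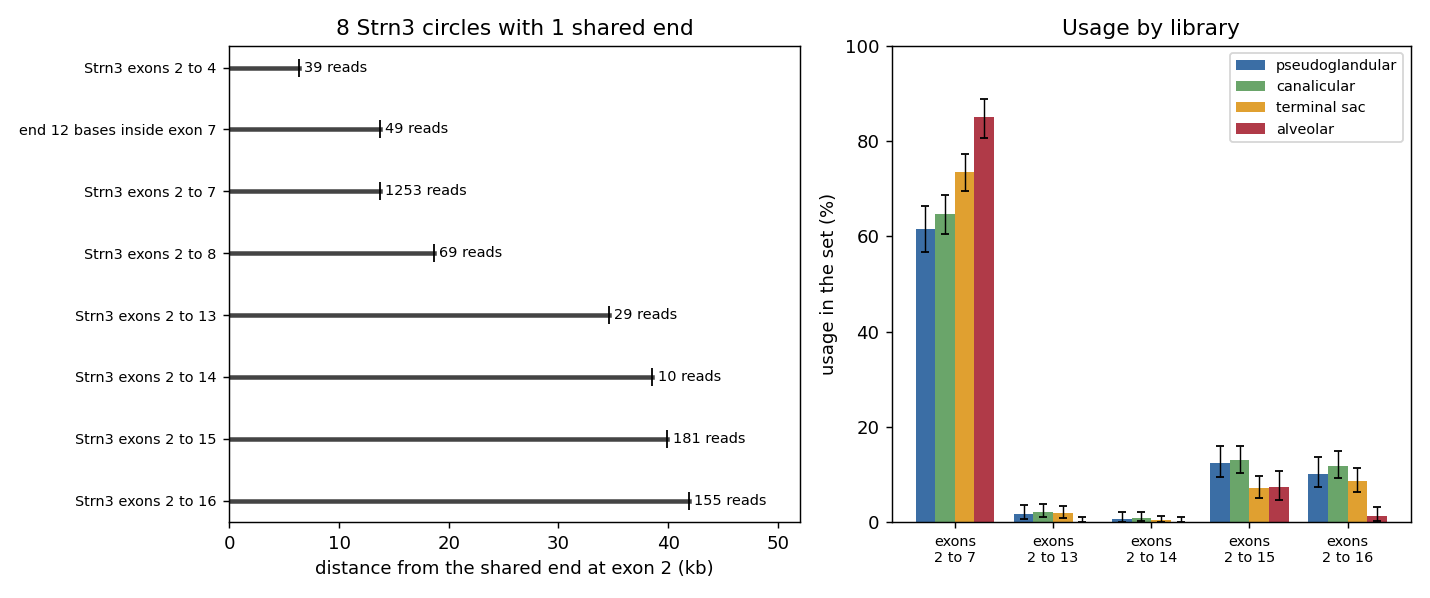
Left, the 8 Strn3 circles that share the acceptor of exon 2, drawn as lines from the shared end to the alternative end (x axis, kb), with their junction reads over the 4 libraries. Right, usage (%) of the circle of exons 2 to 7 and of 4 longer circles in each library with exact binomial 95% intervals; the circle of exons 2 to 7 has 85.1% in the alveolar library, against 61.6% in the pseudoglandular library.

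Ep400, the ATPase of the TIP60 acetyltransferase complex, and Rabgef1, an exchange factor for the endosomal GTPase Rab5, changed between short circles. Ep400 exons 2 to 3 (chr5:110753804-110756766) had 35 of 65 set reads in the pseudoglandular library and 36 of 134, 45 of 161 and 21 of 92 in the canalicular, terminal sac and alveolar libraries. The other circle was exon 2 alone. The pseudoglandular library stood apart from the other libraries, and the alveolar usage of 22.8% was 31.0 points below its 53.8% (interval of the difference, alveolar minus pseudoglandular, -44.7 to -15.7). Rabgef1 exons 2 to 4 (chr5:130187401-130198116) had 20 of 23, 20 of 27, 18 of 34 and 13 of 32 reads in order of stage, the rest being exons 2 to 3. Its usage fell to 40.6% in the alveolar library, against 87.0% in the pseudoglandular library, a difference of -46.3 points (-63.7 to -20.7).

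Kansl1l, a paralogue of a subunit of the NSL acetyltransferase complex, gave 7 members in 5 sets on chromosome 1. Among the 3 circles from the acceptor at 66807604, chr1:66762048-66807604 had 9 of 15, 14 of 29, 16 of 35 and 0 of 21 reads in order of stage, and chr1:66772906-66807604 had 2, 4, 3 and 16. The alveolar library was thus the only library in which the longer circle was unlisted and the middle circle led. The difference of the longer circle was -60 points in the alveolar against the pseudoglandular library (-80.2 to -31.2). That of the middle circle was 67.6 points in the alveolar against the terminal sac library (42.3 to 81.9). The donor of the middle circle is also used by Kansl1l exons 2 to 5, which had 19, 33, 34 and 10 reads. In that set of 2 the middle circle had 16 of 26 reads in the alveolar library, against 2 of 21 in the pseudoglandular library, a difference of 52.01 points (24.9 to 69.5). Of the 25 reads of the middle circle 16 were alveolar, so it met the minimum of 10 only through that library. Its differences can in part follow from this selection.

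In 3 chromatin and transcription genes the longer circle was unlisted in the alveolar library. Ubn2, a ubinuclein of the HIRA histone chaperone complex, gave exons 4 to 7 (chr6:38461475-38470222) in 6 of 15, 9 of 14, 6 of 9 and 19 of 19 reads in order of stage, the rest being exons 4 to 13. Chd2, a chromatin remodeller, gave exons 3 to 5 (chr7:73514090-73519708) in 15 of 26, 12 of 20, 22 of 26 and 12 of 12 reads, the rest being exons 3 to 6. In both sets the pseudoglandular library had the lowest usage of the shorter circle, and the longer was unlisted in the alveolar library. The difference was 60 points for Ubn2 (30.5 to 80.2) and 42.3 points for Chd2 (12.8 to 61.1) in the alveolar against the pseudoglandular library. Ubn2 exons 4 to 13, with 17 reads in all, met the minimum of 10 only through the pseudoglandular library. Ascc3, a helicase of the ASC-1 complex, had a circle whose donor lies at no annotated exon boundary. That circle, chr10:50748806-50770383, had 8 of 21, 2 of 13, 0 of 14 and 0 of 22 reads beside exons 31 to 36, and its difference was -38.1 points (-59.1 to -15.3). It met the minimum of 10 reads only through the pseudoglandular library.

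Taf4, a TFIID subunit, had the reads of its 3 alternative ends in a different order in each library. Some of these ranks rest on counts as close as 6 against 5, which counting error does not separate. Taf4 exons 2 to 5 (chr2:179935029-179939954) had 5 of 11, 4 of 16, 8 of 13 and 0 of 13 reads in order of stage, exons 2 to 7 had 6, 2, 3 and 7, and exons 2 to 14 had 0, 10, 2 and 6. The shortest circle was highest in the terminal sac library and unlisted in the alveolar library, a difference of -61.5 points between them (-82.3 to -26.9). The longest circle was 62.5 points higher in the canalicular than in the pseudoglandular library (27.3 to 81.5). Of the 17 reads of the shortest circle 8 were terminal sac, and of the 18 of the longest 10 were canalicular. Both met the minimum of 10 reads only through the library where they were highest. Unc13b, a Munc13 protein of vesicle priming, alternated as well. Its circle of exons 2 to 7 (chr4:43087903-43115160) had 0 of 10, 10 of 18, 0 of 22 and 14 of 22 reads, the rest being exons 2 to 6. The difference was 63.6 points in the alveolar against the pseudoglandular library (29.0 to 80.3) and -55.6 points in the terminal sac against the canalicular library (-75.4 to -29.1). With no second library of any stage, whether such alternation belongs to the stage or to the library cannot be told apart.

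Among sets with a shared last exon, Srbd1, an S1-domain RNA-binding protein gene, turned to another acceptor in the alveolar library. Srbd1 exons 11 to 14 (chr17:86098512-86109334) had 0 of 17, 2 of 20, 3 of 18 and 8 of 13 reads in order of stage, and exons 8 to 14 had 10, 14, 13 and 3. The alveolar usage of exons 11 to 14 was 61.5 points higher than the pseudoglandular one (29.7 to 82.3). Of the 13 reads of this circle over the libraries 8 were alveolar, so it met the minimum of 10 only through that library. Agtpbp1, a tubulin deglutamylase, gave exons 12 to 17 (chr13:59495333-59508056) in 4 of 10, 4 of 17, 2 of 8 and 11 of 11 reads, the rest being exons 2 to 17, and the difference was 60 points (21.3 to 83.2). It lost the call when all listed circles at that end entered the denominator.

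**Figure D3:**
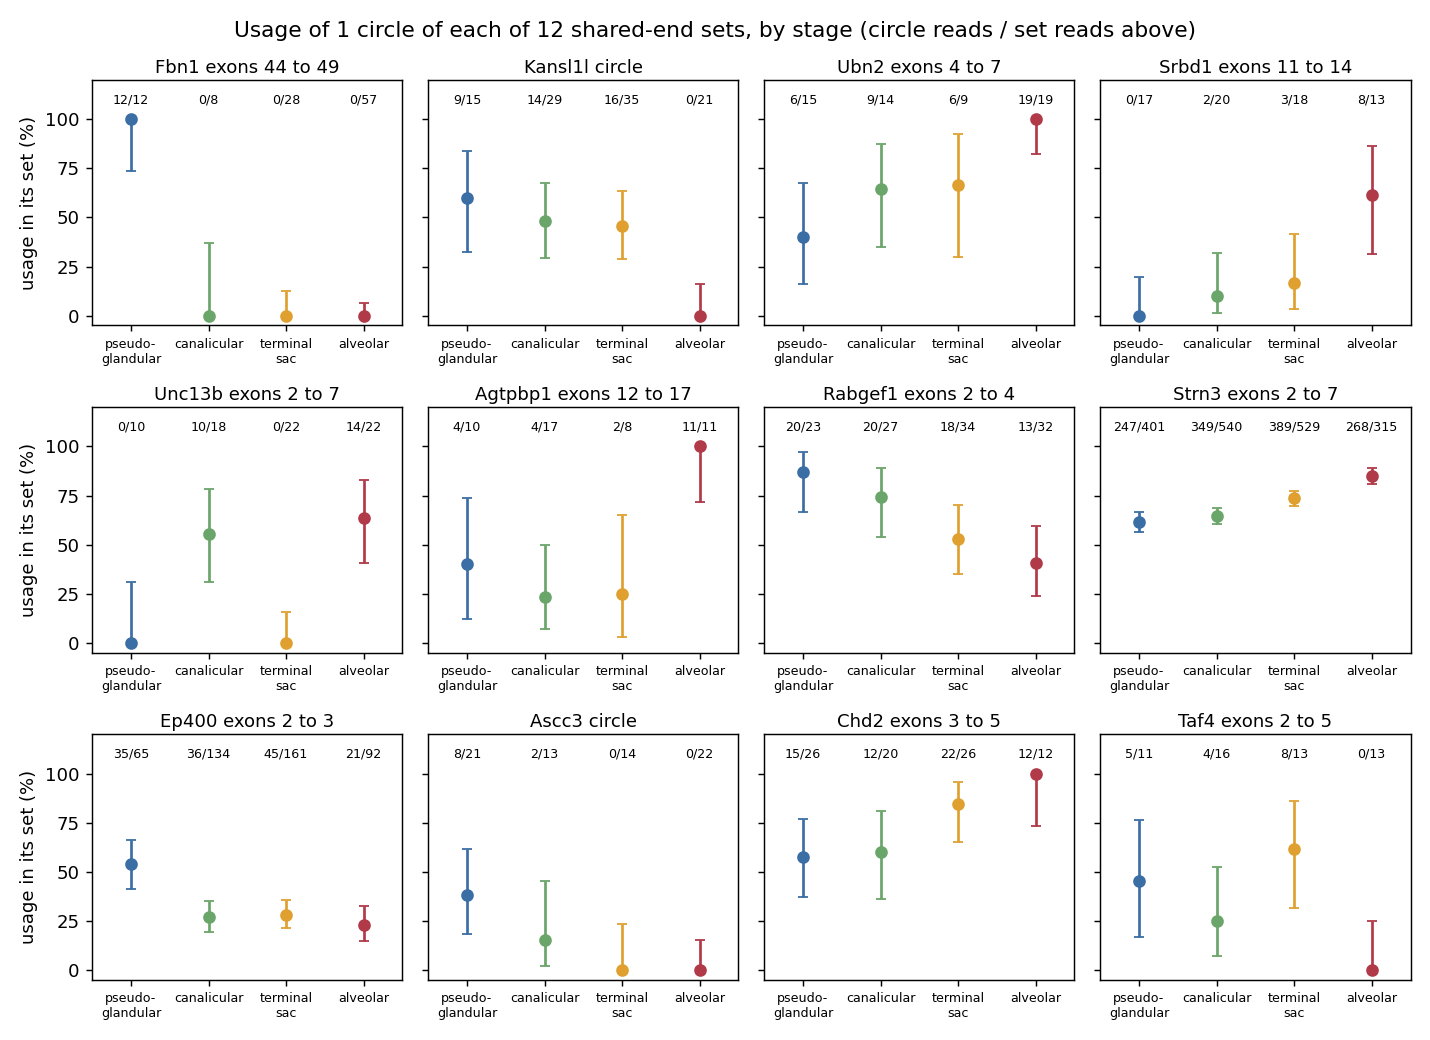
Usage (%, y axis) in its set of 1 circle from each of the 12 called sets, 1 per host and without sets whose ends lie within 10 bases, whose alveolar against pseudoglandular interval lay farthest from 0, by stage (x axis), with exact binomial 95% intervals and the circle's reads over the set's reads above each point. Strn3 has 315 to 540 set reads in a library and short intervals at every stage.

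The elastic fibre genes Fbn1 and Eln each have a set in which the leading circle differed between libraries, and both sets are marked by repeats or few patterns. Fibrillin-1, the scaffold of microfibrils, is encoded by Fbn1, and its circle of exons 48 to 49 (chr2:125328093-125329119) had 0, 8, 28 and 57 reads in order of stage, while exons 44 to 49 (chr2:125328093-125338558) had 12, 0, 0 and 0. The first had few alignment patterns, and the second had 11 bases repeated at its ends. Their junctions have capitals on the alternative side.
Fbn1 exons 48 to 49: atgacaagtgtgaagATGTTGATGAGTGTG
Fbn1 exons 44 to 49: atgacaagtgtgaagATATTGATGAATGCC
Elastin is encoded by Eln. Eln exons 17 to 22 had 1646 reads in the alveolar library and was unlisted in the other libraries. The circle chr5:134715684-134718119 from the same donor had 36 reads in the terminal sac library and 3 in the alveolar library. Both have few alignment patterns, with 14 repeated bases at the ends of exons 17 to 22 and 9 at those of the other.
Eln chr5:134715684-134718119: aagctgctaagtatgGTGCTGGAATCCCAG
Eln exons 17 to 22: aagctgctaagtatgGTGCTGGGGGAGCTG
The Eln set made up 5.82% of all listed junction reads of the alveolar library. Its usage of the shorter circle was 0.182% in the alveolar library, against 100% in the terminal sac library. What repeats and few patterns contribute to these differences was not tested.

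Sets with ends within 10 bases are described apart. Of the other sets, those whose intervals lay farthest from 0 in the canalicular against the pseudoglandular library were in Ttc3, Slf2, Tanc1, Taf4, Slc8a1 and Zfp638. Ttc3, a ubiquitin ligase gene, gave exons 11 to 15 in 14 of 14, 16 of 44, 22 of 40 and 10 of 12 reads in order of stage, the rest being chr16:94403314-94468060. The long circle was thus unlisted in the pseudoglandular library and led in the canalicular library, with a difference of the short circle of -63.6 points (-76.2 to -37.5). Slc8a1, the sodium-calcium exchanger of cardiac and smooth muscle, gave exons 3 to 9 in 19 of 19, 6 of 13, 2 of 2 and 5 of 9 reads, a difference of -53.8 points in that step (-76.8 to -24.0). Slf2 exons 4 to 7 had 2 of 16 reads in the canalicular library, against 10 of 12 in the pseudoglandular library. Tanc1 exons 6 to 7 had 10 of 10, against 3 of 11, and Zfp638 exons 2 to 3 had 10 of 12, against 3 of 14, where the other Zfp638 circle, exon 2 alone, had few alignment patterns. These Slf2, Tanc1 and Zfp638 circles had 17, 18 and 18 reads in all. Each met the minimum of 10 only through the library where it was high. The other circle of each of these sets, and Slc8a1 exons 3 to 10, likewise met it only through a single library.

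In the terminal sac against the canalicular library Adgrl3, Eri3, Unc13b, Smc3, Arf3 and Depdc1b led. Adgrl3 exons 10 to 13, from the gene of the adhesion receptor latrophilin-3, had 4 of 4, 12 of 12, 4 of 14 and 12 of 30 reads in order of stage, and circles of exons 10 to 12 and 10 to 17 were listed only in the terminal sac and alveolar libraries. Its difference was -71.4 points (-88.3 to -35.8). Eri3, an exoribonuclease-family gene, gave exons 3 to 6 in 7 of 14, 15 of 37, 15 of 15 and 8 of 10 reads, a difference of 59.5 points (33.6 to 73.7). Smc3, a cohesin subunit, had exons 8 to 13 in 0 of 11 terminal sac reads, against 12 of 19 canalicular reads. Depdc1b exons 3 to 11 had 0 of 11, against 17 of 29. The shorter Arf3 circle had 11 of 17, against 0 of 10, with few alignment patterns. All 12 reads of this Smc3 circle were canalicular, and all 11 of this Arf3 circle were terminal sac. Of the 21 reads of Depdc1b exons 3 to 11, 17 were canalicular. Each of these circles met the minimum of 10 reads only through the library where it was high. The other circle of the Eri3 set, exons 3 to 7 with 31 reads in all, likewise met it only through the canalicular library.

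In the alveolar against the terminal sac library Ezh2 and Atrnl1 were called besides Eln, Kansl1l, Unc13b and Taf4. Ezh2, the methyltransferase of Polycomb complex 2, gave exons 4 to 8 in 16 of 28, 14 of 30, 5 of 30 and 10 of 12 reads in order of stage, the rest being exons 2 to 8. The terminal sac library was the lowest, and the difference was 66.7 points (33.8 to 81.8). A second Ezh2 set, with a shared acceptor at exon 2, lost reads at its far end. Ezh2 exons 2 to 15 had 50 of 155, 28 of 141, 21 of 115 and 7 of 61 reads, and its alveolar usage was 20.8 points below the pseudoglandular one (-30.4 to -8.35). Atrnl1 exons 22 to 26, from an attractin-like gene, had 6 of 23, 7 of 24, 3 of 29 and 13 of 20 reads, a difference of 54.7 points (27.7 to 72.8).

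The fullest sets spread their reads over many ends. Rere had 8 circles from the acceptor of exon 2, spanning 469 to 164101 bases, and Rere exon 2 alone led in every library with 63 of 145, 54 of 163, 53 of 122 and 63 of 99 reads. Its alveolar usage of 63.6% was 20.2 points above the pseudoglandular 43.4% (7.44 to 31.9). Of the 7 longer circles 3, ending at exons 7, 10 and 12, were unlisted in the alveolar library, after 2 or more reads in each of the others. Tasp1, the protease that cleaves MLL, had 6 circles from exon 2, and Tasp1 exons 2 to 4 had 23 of 43, 12 of 39, 39 of 75 and 5 of 20 reads. Its alveolar usage was 28.5 points below the pseudoglandular one (-48.2 to -2.21). Atp9b, of the flippase family, had 5 circles from exon 2, led by exons 2 to 4 with 11 of 30, 19 of 43, 30 of 73 and 11 of 22 reads.

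Gene lists were read by the sets called in the alveolar against the pseudoglandular library, where 22.3% of all compared sets were called. The median absolute difference of the shortest circle over those sets was 11 points. Chromatin regulators had 5 of 19 sets called, with a median absolute difference of 15.2 points, in Ash1l, Chd2, Ehmt1, Ezh2 and Rere. Ash1l exon 2 had 7 of 17 alveolar reads, against 3 of 23 pseudoglandular reads. Ehmt1 exons 4 to 9, from a histone methyltransferase gene, had 0 of 19, against 5 of 24. It had 11 reads over the libraries and would not have met the minimum of 10 without its pseudoglandular reads. Phf21a, of the LSD1 complex, kept exons 3 to 7 as the only circle of its first-exon set in 3 libraries, with 142, 238 and 64 reads, and in 174 of 194 reads of the canalicular library.

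Genes of transcription factors and of Wnt, TGF-beta and FGF signalling had 0 of 18 sets called in that comparison, with a median absolute difference of 7.07 points, and genes of the ubiquitin system 0 of 8, with 6.63 points. In the steps between neighbours the same lists had calls, for example 3 of 23 and 1 of 9 in the terminal sac against the canalicular library. Kinases and phosphatases had 2 of 9 called, with Strn3 among them. RNA-binding and splicing genes had 2 of 6 called, both in Rbm33. Rbm33 exons 2 to 5 had 17 of 40, 2 of 19, 19 of 33 and 6 of 34 reads in order of stage, so the pseudoglandular and terminal sac libraries were high and the canalicular and alveolar libraries low. Cpsf6, a 3′-end processing factor, kept exons 2 to 10 in front, with 41 of 52, 44 of 49, 37 of 52 and 21 of 25 reads, and Smg6, the nuclease of nonsense-mediated decay, kept exons 2 to 10 with 49 of 64, 36 of 53, 16 of 18 and 22 of 26.

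Genes of the cell cycle and cohesin had 1 set compared and called, in Cdk13, a kinase of RNA polymerase II, where exons 3 to 6 had 15 of 35, 14 of 43, 15 of 45 and 3 of 31 reads in order of stage. Bub1b, a spindle checkpoint kinase, had 43, 56, 53 and 6 set reads, too few in the alveolar library to be compared. Genes of the cytoskeleton and adhesion had 1 of 3 called, in the polarity gene Pard3, and small GTPase regulators had 0 of 3. Arhgap5, a GTPase-activating protein, kept its shorter circle at 82.6, 86.6, 80.2 and 91.2% in order of stage. The matrix list had 1 of 1 called, the Fbn1 set described above.

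Marker genes of lung cell types were read in the same way. Of 12 alveolar type 2 genes 1 had a set, Lamp3, a lamellar body membrane protein. Its circle of exons 2 to 5 had 0, 6, 47 and 83 reads in order of stage, and exons 4 to 5 had 0, 0, 17 and 27. Both were thus nearly confined to the later libraries, and the usage of exons 4 to 5 was 24.5% in the alveolar library, against 26.6% in the terminal sac library. None of 9 alveolar type 1 genes and none of 12 immune genes had a set. Of 18 endothelial genes 2 had one, and Ldb2 exons 3 to 5 had 9 of 21 reads in the terminal sac library, against 0 of 13 in the canalicular library. Of the 13 reads of this Ldb2 circle over the libraries 9 were terminal sac, so it met the minimum of 10 only through that library. Of 16 cardiac, striated and smooth muscle genes 3 had sets, and 1 of 7 sets was called in the alveolar against the pseudoglandular library. Pde5a, the phosphodiesterase of cyclic GMP in smooth muscle, held that call, with exons 4 to 9 in 5 of 34 alveolar reads, against 5 of 10 pseudoglandular reads. Its most abundant set kept exons 7 to 12 at 60.4, 59.2, 65.7 and 67.2% in order of stage. Whether cell composition moves with the usage of a set was not tested.

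Where 2 starts and 2 ends of a host all joined each other, it could be asked whether the choice of an end went with the choice of a start. This held for 19 such squares in 12 hosts, with reads summed over the libraries. The odds ratio of the end choice was above 1 in 6, below 1 in 4, and its interval held 1 in 9. The ratio is the product of the reads of the middle pairings over that of the longest and the shortest circle. In Zfp827 the acceptor of exon 6 went with the donor of exon 8 in 863 reads and with that of exon 7 in 29, while the acceptor of exon 5 went with them in 34 and 13 reads, an odds ratio of 11.4 (5.44 to 23.8). In Pde5a the acceptor of exon 8 joined the donors of exons 12 and 11 in 133 and 109 reads and that of exon 4 in 40 and 35, an odds ratio of 1.07 (0.635 to 1.80). The end choice in Pde5a was thus indistinguishable between the 2 starts at this depth, while in Zfp827 it differed with the start.

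In 10 sets the alternative ends lay within 10 bases of each other. The bases between such ends, and between further ends up to 30 bases apart, could be read in 15 cases. Where the acceptor varied they ended in AG in every case, and where the donor varied they began with GT in every case, read on the host strand. CIRI and callers like it are known to ask for these letters at the ends of a circle, so their presence is a property of the calling. For comparison, the letters AG occur within the first 10 bases of 48.8% and the letters GT within the last 10 bases of 26.0% of 1787 circles with both ends at exon boundaries. The stretch was GCAG in Lrp6, GTAG in Gbe1 and in Tinag, ACAG in Mbtd1, GAAG in S100pbp, GTAAG in Eprs and GTACAGAATGGG between the ends of Strn3 exons 2 to 7 and chr12:51648006-51661713. The junctions of Lrp6, Gbe1, Eprs and Mbtd1, which lie in coding sequence, show the shift, with capitals on the alternative side.
Lrp6 exons 4 to 7: acagacaaaattgagGCAGGCAGTGGTTAA
Lrp6 chr6:134506196-134513415: acagacaaaattgagGCAGTGGTTAAAGGT
Gbe1 chr16:70433545-70441319: atttatctattccagGTAGTTATTACTAGT
Gbe1 chr16:70433549-70441319: atttatctattccagTTATTACTAGTAAGA
Mbtd1 exons 4 to 7: gcctgttttaagcatACAGAACATTCTTCA
Mbtd1 chr11:93905163-93912458: gcctgttttaagcatAACATTCTTCACAAT
Eprs exons 11 to 15: AACAAAGACAGTAAGggatgacccacggtt
Eprs chr1:185386246-185397262: ACATCAACAAAGACAggatgacccacggtt

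The close ends fell into kinds by their presence. In some hosts the shifted circle was listed in 1 library only. The shifted circle of Lrp6, a Wnt co-receptor, had 0, 0, 20 and 0 reads in order of stage, beside 60, 57, 40 and 18 for exons 4 to 7. That of Gbe1, the glycogen branching enzyme, had 0, 0, 38 and 0 beside 10, 27, 70 and 12, and that of S100pbp had 0, 0, 16 and 0 beside 17, 29, 35 and 2. In Eprs, the glutamyl-prolyl-tRNA synthetase, the shifted circle had 17, 0, 0 and 0 reads beside 26, 17, 25 and 11. In Nlrp5-ps 2 shifted circles were listed, 1 with 118 reads in the terminal sac library and 1 with 84 in the pseudoglandular library, beside 139, 159, 147 and 83 for exons 2 to 11. The usage of Nlrp5-ps exons 2 to 11 among the circles of its donor was 38.2 points higher in the alveolar than in the pseudoglandular library (30.7 to 44.7). In other hosts both forms recurred. In Sppl2a, which encodes an intramembrane protease, the inner form had 6 of 12 set reads in the alveolar library, against 0 of 21 in the pseudoglandular library, a difference of 50 points (20.9 to 74.6). No end of either Sppl2a circle lies at an annotated exon boundary. Tinag, an extracellular matrix glycoprotein gene, had 17, 35, 38 and 13 reads at the inner acceptor and 14, 31, 43 and 12 at the outer, both at annotated boundaries. Mbtd1 had 2, 9, 6 and 0 beside 2, 7, 4 and 0, and Cnot4 had 0, 6, 3 and 3 beside 9, 16, 14 and 15. The 12-base form of Strn3 was likewise listed in all libraries, with 14, 10, 15 and 10 reads, a usage between 1.85% and 3.49%.

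**Figure D4:**
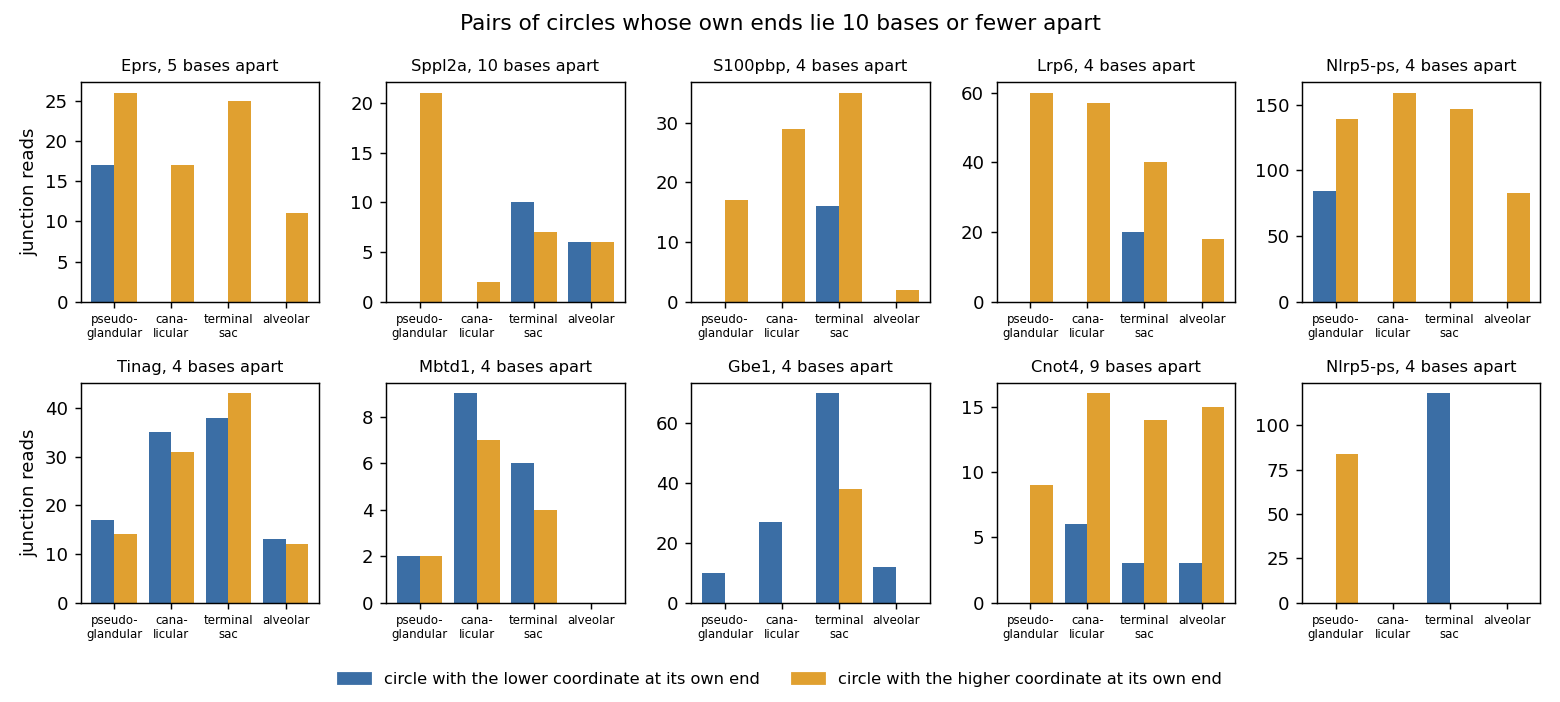
Junction reads (y axis, a scale for each panel) by stage (x axis) for the 10 pairs of circles whose own ends lie 10 bases or fewer apart, blue for the lower and orange for the higher genome coordinate. Eprs, S100pbp, Lrp6, Gbe1 and Nlrp5-ps show a second circle in a single library, and Tinag shows both in all 4 libraries.

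Usage says nothing about the total amount of a circle, so members were also read by their share of all listed junction reads, called at 2-fold or more with an exact interval that excluded 1. In the alveolar against the pseudoglandular library 37 of 427 members were higher and 83 lower. Over all 933 circRNAs tested, 29.6% were called, with 12.2% higher and 17.4% lower. Scaled by the median of ratios the members' split was 48 higher and 65 lower, and scaled by non-junction reads 45 and 66. In the canalicular against the pseudoglandular library 34 and 33 of 487 members were called, where 8.16% and 9.83% of all were (18% in either direction), and scaling by non-junction reads gave 52 higher and 25 lower. In the terminal sac against the canalicular library 38 and 60 of 560 were called, where 8.94% and 11.2% of all were (20.1% in either direction). In the alveolar against the terminal sac library 36 and 68 of 504 were called, where 10.5% and 11% of all were (21.5% in either direction), and scaling by the median of ratios gave 43 and 45, while scaling by non-junction reads gave 38 and 55.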

How the data were processed

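Total RNA of 4 lung libraries was sequenced. Trimming and alignment tools appear in the submitters' processing notes without roles, namely BWA, HISAT2 (2.0.5), HTSeq, StringTie and cutadapt, with mm10 as the build. The file type and columns match the caller CIRI. Per the file headers, the deposited files give junction and non-junction reads as counts and the junction ratio as a fraction. How the lists were filtered is not stated in the labels or headers, and no listed circle has under 2 junction reads. A circle was identified by chromosome, start and end. Host genes are the deposited identifiers, of which 4647 of 4653 are in GENCODE M21. Strand, exon numbers and sequences came from M21.

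Usage intervals are Clopper-Pearson, differences carry Newcombe intervals, odds ratios Woolf intervals and share ratios exact conditional binomial intervals, all at 95%. In share ratios an unlisted circle was set to 3 reads. Few alignment patterns means fewer than 3 distinct patterns per 10 reads, and under 100 in all, in the circle's deepest library. Reads carry no molecular identifiers, so intervals cover counting error only. The usage comparison was tested on simulated counts. Named sets are the 12 called sets of alveolar against pseudoglandular, and the 6 of each step, whose interval lies farthest from 0, 1 per host and leaving aside sets with ends within 10 bases, then those with most reads or circles and up to 3 per gene list. Members and lists were chosen with earlier results of these data known. Python 3.11.15, numpy 2.4.6, pandas 2.3.3, scipy 1.17.1 and matplotlib 3.10.9 were used.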

Additional observations from a re-analysis of the deposited data

How the results depend on the processing

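Counts of called sets changed with the read minimum and, in 1 comparison, with the size of the difference asked for. With 20 or more reads per circle the counts were 30 of 138 sets for alveolar against pseudoglandular, 25 of 154 for canalicular against pseudoglandular and 25 of 161 for terminal sac against canalicular. With 20 or more set reads in each library they were 22, 23, 20 and 22, the last for alveolar against terminal sac, and the split of the shortest circle for canalicular against pseudoglandular became 16 higher and 7 lower, against 27 and 30. Members called by share with 20 or more reads in the pair numbered 72, 40, 62 and 69 in the same order of comparisons. Fewer circles or sets were tested in each of these, but the called shares of sets moved as well. With 20 set reads they were 20, 15.9, 11.6 and 16.1% of 110, 145, 172 and 137 sets. The main shares were 22.3, 22.2, 19.9 and 19.4%. With 20 reads per circle the shares were 21.7, 16.2, 15.5 and 21.8%, the last being higher than in the main run. With the larger minimum of 30 points, over the same 206 sets, the alveolar against pseudoglandular count was 25. The other alternatives kept the counts within 1.5 times, from 33 to 54 in the alveolar against the pseudoglandular library. Among them 1 set per host gene (37 calls) and leaving out sets with ends within 10 bases (42) were chosen after seeing the data. The alternative of both ends at exon boundaries and those chosen after seeing the data were not run on single named differences. The others were run on the 30 usage differences named for their intervals, but not each could be had. Values were had for 8 of them with 20 set reads in each library, 15 with 20 reads per circle and 26 without repeat-end and few-pattern circles, where Fbn1, Eln, Zfp638 and Arf3 dropped out. None of the values had was reversed, Agtpbp1 lost its call with all listed circles as denominator (38.6 points) and Strn3 at 30 points (23.5 points). The share of sets with the same leader in every library was 65.9% with 20 or more reads per circle. No paired analysis was possible because each stage has 1 library. Set depth limits the reach, since the median interval of a difference was over 40 points wide.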
